A study of Mus musculus with 6 samples.

Results

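T cell receptor (TCR) gene segments were examined on 6 arrays of CD4+CD8+ double-positive (DP) thymocytes, 3 from Hdac3 knockout (KO) mice and 3 from wild-type (WT) mice. All mice were C57BL/6 and 3 weeks old. The strain is labelled LCK:Hdac3 KO, after Lck, a kinase gene of the T lineage, and Hdac3, which encodes a histone deacetylase, and neither the deleted part of Hdac3 nor the deleting allele is given in the sources used here. RNA was pooled from 2 mice of each genotype, and the series counts 3 biological replicates without saying which animals contributed to which array, so every p-value here rests on array-to-array spread, which may be technical.

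The segments were chosen by gene symbol alone, as every probe set whose symbol field holds a segment or locus name of the alpha, beta or delta receptor genes, or the locus name Tcrg. The rule found 48 of the 28853 probe sets, and 37 remained after probe sets with identical values on all arrays were counted once. They fell into 34 probe sets of the alpha locus (Tcra, chromosome 14), 2 of the beta locus (Tcrb, chromosome 6) and 1 of the delta locus (Tcrd), which lies inside Tcra. All 37 were annotated to variable (V) segments, with 0 to J or constant segments. All 37 had at least 1 gene and entered the test, with no filter on low signal.

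Receptor genes are assembled in thymocytes by V(D)J recombination, in which the RAG recombinase joins a V segment to a J segment, with a D segment between them in the beta and delta genes. The beta chain is assembled first, at the double-negative stage. The alpha chain is assembled in DP cells, where a Tcra allele can join again and again, from V and J segments that lie close together towards segments farther apart, until a receptor is selected or the cell dies. Mouse Trav segments form subfamilies of near-identical copies, because a stretch of the locus was duplicated, with the copies marked d and n in the segment names.

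The array could not resolve most of these copies. Only 9 of the 37 probe sets were paired with 1 symbol, and 28 with several. Of the 27 Trav probe sets with several symbols, 25 named segments from more than 1 copy of the duplicated stretch. The symbols Trav3-3 and Trav3n-3 stood in the annotation of the same 21 probe sets, whose mean log2 signals ran from 4.02 to 8.90, so this pair of names does not identify a probe set. The 37 probe sets were annotated through 71 transcript records, and 33 of these records were shared by more than 1 of them. For 19 of the 37, every record was shared. The probe sets are therefore neither independent of each other nor assignable to single segments, and a probe set with several symbols is called below by all of its symbols. Where several probe sets carry the same symbols, the probe set number is given.

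Hdac3 was lower on every KO array, with log2 signals of 8.28, 8.32 and 8.32 on the KO arrays, against 9.40, 9.42 and 9.44 on the WT arrays (difference -1.12, SE 0.08, limma adjusted p = 0.00035). Which of its probes fall in the deleted stretch is unknown, so this gives no measure of the remaining protein. The KO arrays had a narrower spread of signal than the WT arrays, with interquartile ranges of 3.06 to 3.25 on the log2 scale against 3.29 to 3.49. Genotype differences accordingly shifted with brightness. Among all tested probe sets the median was 0.16 in the bin with a median signal of 5.48, and -0.17 in the bin at 7.78.

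The probe sets annotated to Trav14 rose in KO thymocytes. Trav14 segments encode the V domain known to immunologists as Vα2, which many transgenic receptors use. All 4 distinct probe sets that name a Trav14 segment passed the test, with log2 differences of 0.56 to 1.27, or 1.47-fold to 2.41-fold. They were the only ones of the 37 TCR segment probe sets to pass, and 0 were lower (limma, Benjamini-Hochberg adjusted p under 0.05 over the 23410 probe sets with a gene). Of all tested probe sets 5.79% were called, 1.75% higher and 4.04% lower. With dim probe sets left out the same 4 passed, beside 3.24% called higher among all probe sets kept, and after quantile normalization they passed with 1 further probe set, beside 1.4%. In bulk RNA, more cells that carry a rearranged Trav14 segment and more Trav14 RNA per cell cannot be told apart, and probes in a V segment can also detect transcripts of the unjoined segment.

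The probe set 10414953, paired with Trav14-1 alone, had log2 signals of 9.01, 9.24 and 9.09 on the KO arrays, against 7.81, 7.96 and 7.75 on the WT arrays. The lowest KO array lay more than 1 log2 unit above the highest WT array. The means were 9.11 ± 0.12 in KO and 7.84 ± 0.11 in WT (SD, n = 3 each), a difference of 1.27 (SE 0.10, 95% interval 1.04 to 1.501, limma adjusted p = 0.00054).

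The probe set 10414950, also paired with Trav14-1 alone, had signals of 8.82, 8.48 and 8.52 on the KO arrays, against 7.85, 8.02 and 7.93 on the WT arrays. The groups did not overlap, and the difference was 0.68 (SE 0.11, 95% interval 0.42 to 0.93, limma adjusted p = 0.011). These 2 probe sets of the same symbol thus differed in size of change. The signal of 10414953 minus that of 10414950 was 0.19, 0.76 and 0.56 on KO arrays 1 to 3, against -0.04, -0.06 and -0.17 on WT arrays 1 to 3. No transcript record was shared between the annotations of these 2 probe sets (0 records), and 10414953 was annotated through a single record that none of the other Trav14 probe sets has.

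The other Trav14 probe sets are shared by several segments. The probe set annotated to Trav14d-3-dv8, Trav14-1, Trav14n-2, Trav3n-3 and Trav3-3 had signals of 8.07, 7.94 and 7.87 on the KO arrays, against 7.22, 7.32 and 7.29 on the WT arrays (difference 0.68, SE 0.09, 95% interval 0.47 to 0.89, limma adjusted p = 0.0046). The probe set annotated to Trav14d-3-dv8, Trav14n-2, Trav3n-3 and Trav3-3 had 7.78, 7.69 and 7.64 on the KO arrays, against 7.36, 7.17 and 6.90 on the WT arrays (difference 0.56, SE 0.12, 95% interval 0.28 to 0.84, limma adjusted p = 0.033). Neither overlapped between the groups. They shared 4 transcript records with each other. The first shared 2 with probe set 10414950 and the second shared 0 with it. The annotations of these 3 thus overlap in part, and the 3 cannot be taken as separate observations.

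The first 3 of these 4 probe sets passed in all 20 alternative fits that covered single probe sets, with limma adjusted p up to 0.047. The fourth, with the smallest change, did not pass without KO array 1, 2 or 3 or WT array 2 (limma adjusted p 0.080 to 0.098, differences 0.52 to 0.59), nor after median centring (difference 0.46, limma adjusted p = 0.065). In the RefSeq annotation of GRCm38.p6 the locus holds 9 Trav14 segments, 3 of them in the copy marked d and 3 in the copy marked n. All 9 lie between a Trav13 and a Trav15 segment. The annotation of these probe sets names 3 of the 9.

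**Figure D1:**
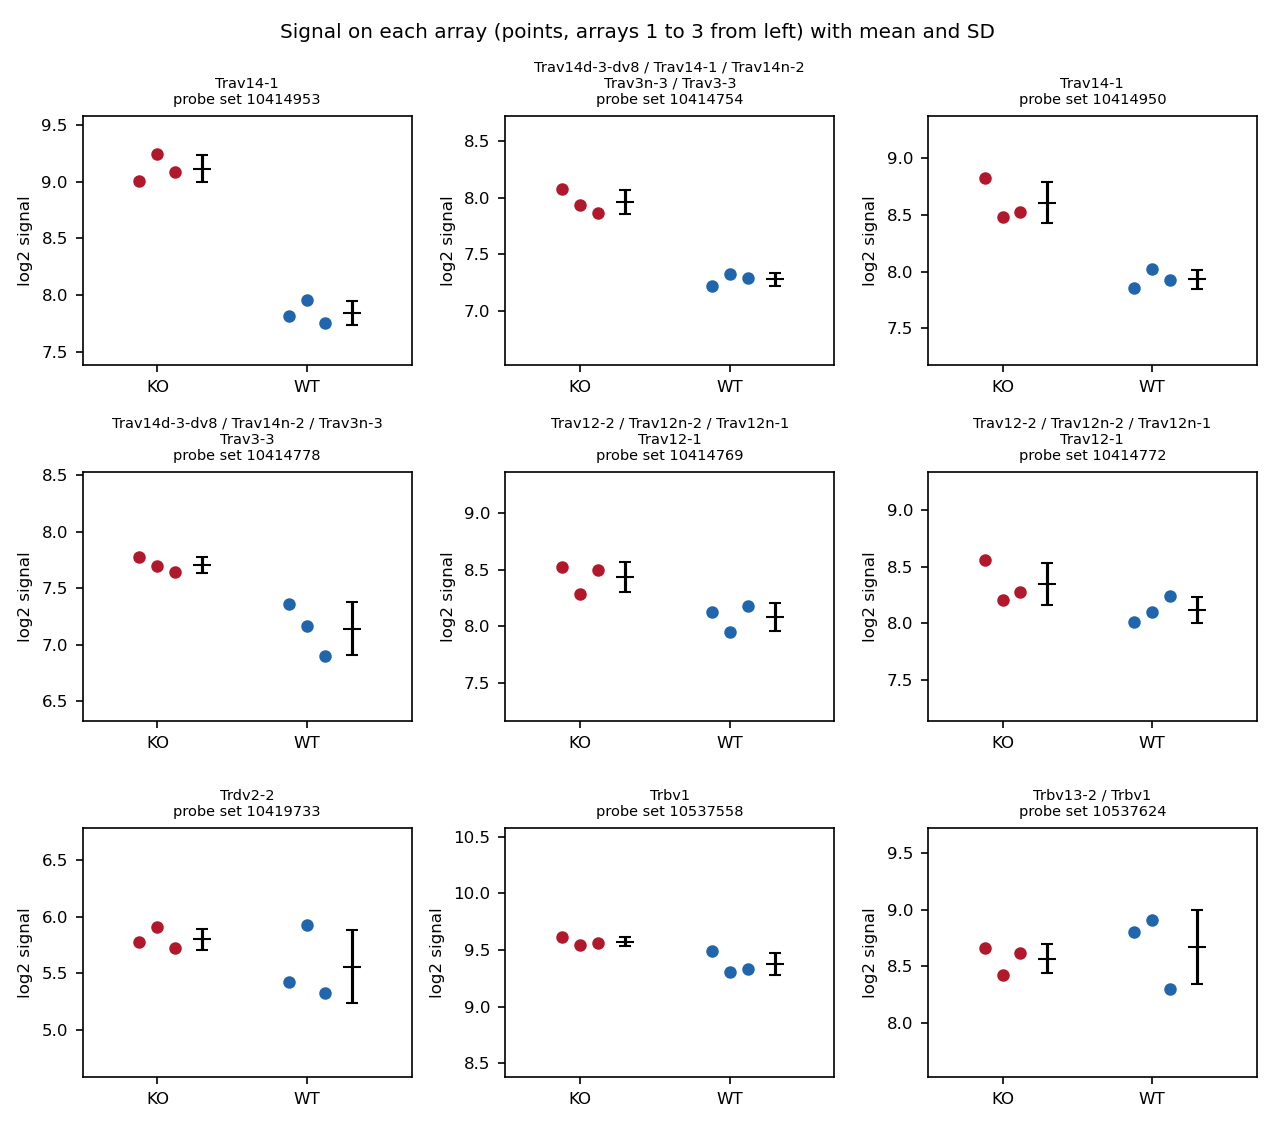
Log2 signal on each KO and WT array for 9 TCR probe sets (points, arrays 1 to 3 from the left), with the mean and SD of each genotype to their right; every panel spans the same log2 range. The KO and WT arrays are separate in all 4 Trav14 panels, in 1 of the 2 Trav12 panels and for Trbv1, and overlap for Trdv2-2 and the probe set of Trbv13-2 and Trbv1.

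Most other Trav probe sets had small positive differences that did not pass. Of the 30 Trav probe sets that name no Trav14 segment, 27 had a positive difference and 3 a negative one, with a median of 0.23 and a range of -0.18 to 0.79, and 0 were called at a limma adjusted p under 0.05. Over all 37 TCR segment probe sets the median difference was 0.24 and 33 were positive, beside a median of 0.02 and 53.1% positive over all tested probe sets. The 3 upper-middle bins of signal (median signals 6.97, 7.78 and 8.67) held 29 of the 37, and all 29 lay above the median of their bin, which was -0.14, -0.17 and -0.13. After quantile normalization, which gives all arrays the same distribution, the median of the 37 was 0.36, with 35 positive, beside 0.0029 and 50.8% for all tested probe sets. Median centring lowered every difference by 0.10, which left the 37 with a median of 0.14 and 29 positive, beside -0.08 and 34.6% for all tested probe sets. Because these probe sets share transcripts, their common direction is not a set of separate observations.

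Array by array, the median signal of the 34 Trav probe sets was 7.75, 7.72 and 7.57 on the KO arrays, against 7.55, 7.46 and 7.34 on the WT arrays, and the groups only just separated. Without the Trav14 probe sets it was 7.63, 7.48 and 7.48 on the KO arrays, against 7.55, 7.46 and 7.34 on the WT arrays, and the groups overlapped.

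**Figure D2:**
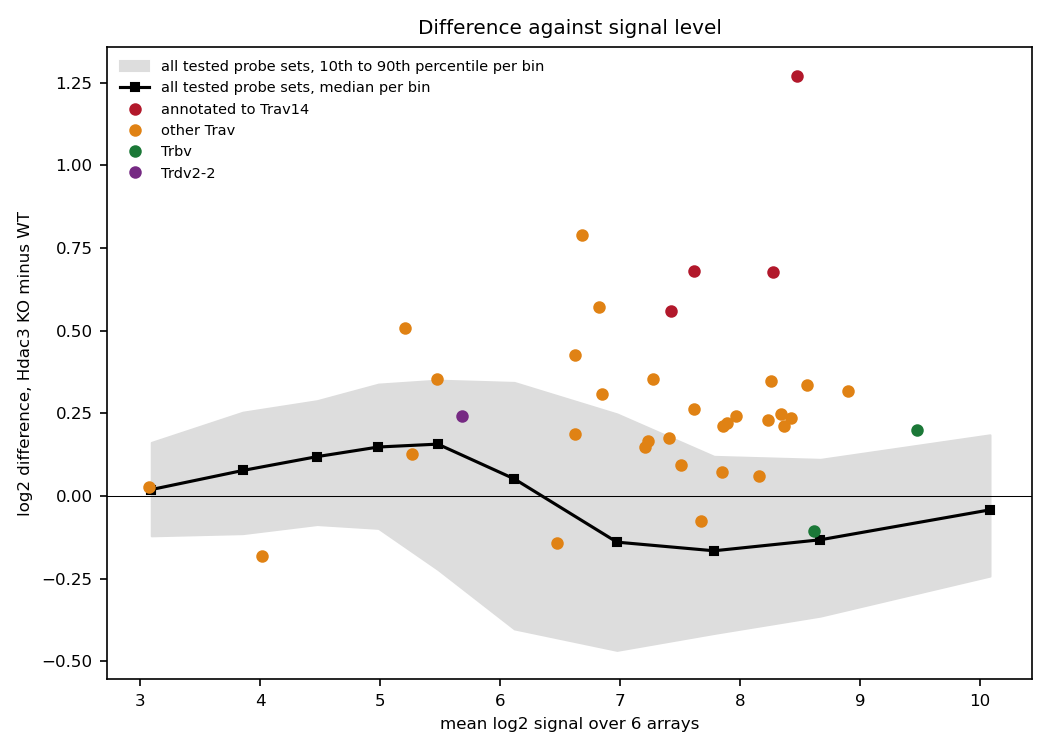
Log2 difference (KO minus WT) against mean log2 signal over the 6 arrays for the 37 TCR segment probe sets (points), with the median and the 10th to 90th percentile of all tested probe sets in 10 bins of signal (line and grey band). The Trav14 points lie at 0.56 to 1.27, where the median of all probe sets is between -0.17 and -0.13.

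The Trav12 subfamily came next by its separation between groups. One of its probe sets, 10414769, annotated to Trav12-2, Trav12n-2, Trav12n-1 and Trav12-1, had signals of 8.52, 8.28 and 8.502 on the KO arrays, against 8.13, 7.95 and 8.18 on the WT arrays. The groups did not overlap, but the difference of 0.35 (SE 0.11, 95% interval 0.11 to 0.59) did not pass (limma adjusted p = 0.087). It passed after quantile normalization (0.48, limma adjusted p = 0.042), after cyclic loess normalization (0.47, limma adjusted p = 0.038) and with array weights (0.41, limma adjusted p = 0.034). It also passed after quantile normalization without WT array 3. In the other 16 of 20 alternatives it did not pass (limma adjusted p up to 0.23), with differences down to 0.25. A second probe set with the same 4 symbols, 10414772, differed by 0.23 and a pair annotated to Trav12n-1 and Trav12-1 by 0.31 and 0.35, and these overlapped between groups. The fifth, paired with Trav12-2 alone, had a mean signal of 3.09 ± 0.54 in KO and 3.06 ± 0.45 in WT (SD, n = 3 each).

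Of 4 Trav7 probe sets, 3 had differences of 0.51 to 0.79 with a wide spread between arrays of the same genotype, the fourth differed by 0.21, and 0 passed. A further probe set, shared by Trav16d-dv11 and Trav7d-6, was kept apart from these 4. It differed by 0.17 and did not pass (limma adjusted p = 0.57). Trav7n-5 had signals of 7.52, 6.50 and 7.22 on the KO arrays, against 5.98, 7.14 and 5.74 on the WT arrays. KO array 2 lay below WT array 2, so the groups overlapped, and the difference of 0.79 had an SE of 0.35 (limma adjusted p = 0.19). Trav7d-4 had 5.22, 5.52 and 5.64 on the KO arrays, against 5.39, 5.02 and 4.45 on the WT arrays (difference 0.51, SE 0.21, limma adjusted p = 0.17). The probe set shared by Trav7-4, Trav3n-3, Trav7d-4 and Trav3-3 had 7.73, 6.44 and 7.16 on the KO arrays, against 6.88, 6.37 and 6.37 on the WT arrays (difference 0.57, SE 0.28, limma adjusted p = 0.23). Its signal on KO array 2 lay among the WT values. It passed only after quantile normalization without KO array 2.

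The remaining Trav subfamilies overlapped between genotypes in every probe set. The 4 probe sets of Trav9 differed by -0.08 to 0.24 and the 4 that name Trav13-5 by 0.09 to 0.35. The 9 annotated to the pair of Trav3-3 and Trav3n-3 alone differed by -0.18 to 0.43. Trav19, a single-copy segment near the 3' end of the Trav array, had 6.61, 5.95 and 6.65 on the KO arrays, against 6.41, 6.82 and 6.41 on the WT arrays (difference -0.14, 95% interval -0.57 to 0.28). Whether Trav14 differed from these subfamilies was not tested. Subfamilies were formed after the values were seen.

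**Figure D3:**
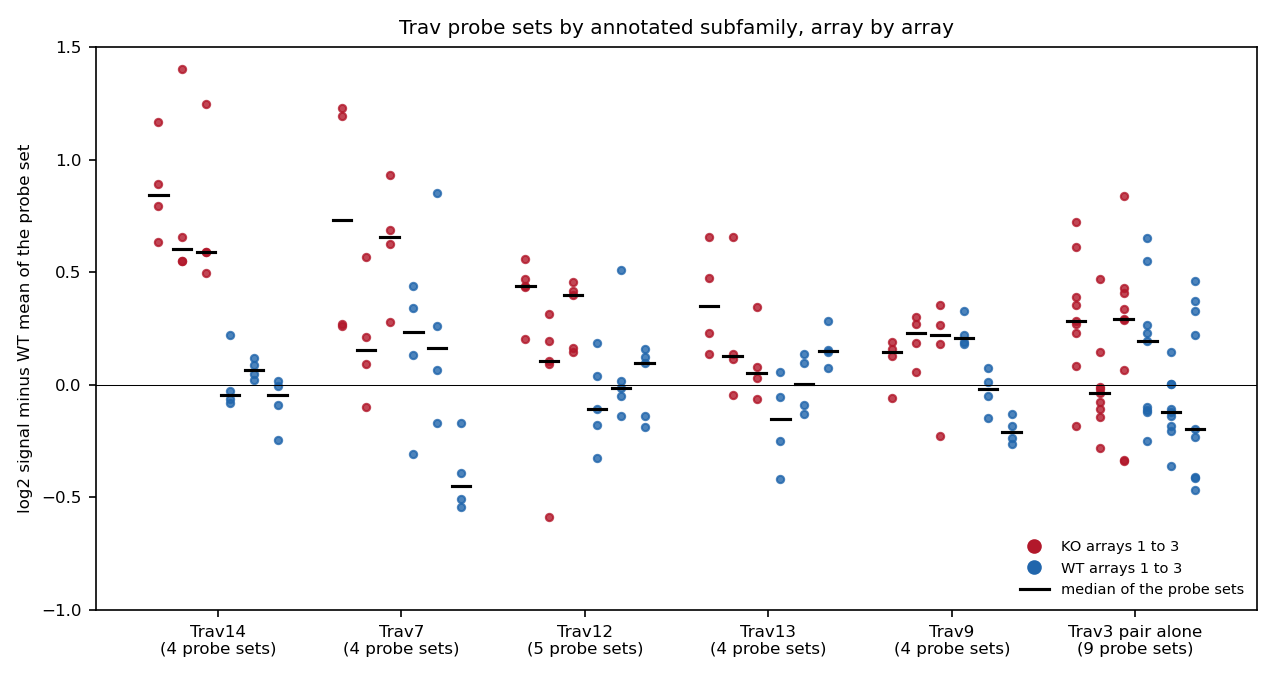
Log2 signal of each Trav probe set on each array, minus the mean of that probe set on the WT arrays, for 6 annotated subfamilies (red points, KO arrays 1 to 3; blue points, WT arrays 1 to 3; bars, median over the probe sets). Medians for Trav14 were 0.84, 0.60 and 0.59 on the KO arrays, against -0.05, 0.07 and -0.05 on the WT arrays, while those for Trav7 were 0.73, 0.15 and 0.65 against 0.24, 0.16 and -0.45.

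The Trav probe sets with the highest signal were named next, although probe sets differ in their probes and their signals cannot be ranked as abundances. Besides 10414953 of Trav14-1, these were a probe set of Trav3n-3, Trav3-3 and Trav13-5, a probe set of Trav3n-3, Trav6d-6 and Trav3-3, and 10414967 of Trav3n-3 and Trav3-3. The first had signals of 9.40, 8.70 and 9.09 on the KO arrays, against 8.49, 8.84 and 8.90 on the WT arrays (difference 0.32, limma adjusted p = 0.28). The second had 8.69, 8.74 and 8.75 on the KO arrays, against 8.75, 8.37 and 8.05 on the WT arrays (difference 0.33, limma adjusted p = 0.21). The last had 8.53, 8.45 and 8.64 on the KO arrays, against 8.05, 8.18 and 8.67 on the WT arrays (difference 0.24, limma adjusted p = 0.35). In each of the 3, at least 1 WT array reached the KO values. Leaving out WT array 3 brought the last past the threshold, with or without quantile normalization, and leaving out WT array 1 did so for the second under quantile normalization.

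Position along the locus could be given only for the probe sets with 1 symbol, which name 6 Trav segments among the 130 that RefSeq lists. The position is that of the annotated symbol, since a probe set may also detect near-identical copies elsewhere in the locus. In order from the 5' end the 6 named segments are Trav7d-4 (the 14th), Trav7n-5 (the 55th), Trav14-1 (the 98th), Trav12-2 (the 104th), Trav13-5 (the 123rd) and Trav19 (the 126th). Their differences in that order were 0.51, 0.79, then 0.68 and 1.27 for the pair of Trav14-1 probe sets, 0.03, 0.35 and -0.14. Across these 7 probe sets, the correlation of the difference with rank had a Pearson r of -0.33 and a Spearman rho of -0.68. Without Trav14-1 the 5 others gave -0.70 and -0.80. These values describe few probe sets on the same arrays, and the 5 probe sets other than those of Trav14-1 were not called. Trav12-2 had a mean signal of 3.07, in the dimmest of the 10 bins of signal. Trav7d-4 lay in a bin where the median difference of all tested probe sets was 0.15. In the bin that held both Trav7n-5 and Trav13-5 it was -0.14. A part of brightness in these correlations was not tested.

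**Figure D4:**
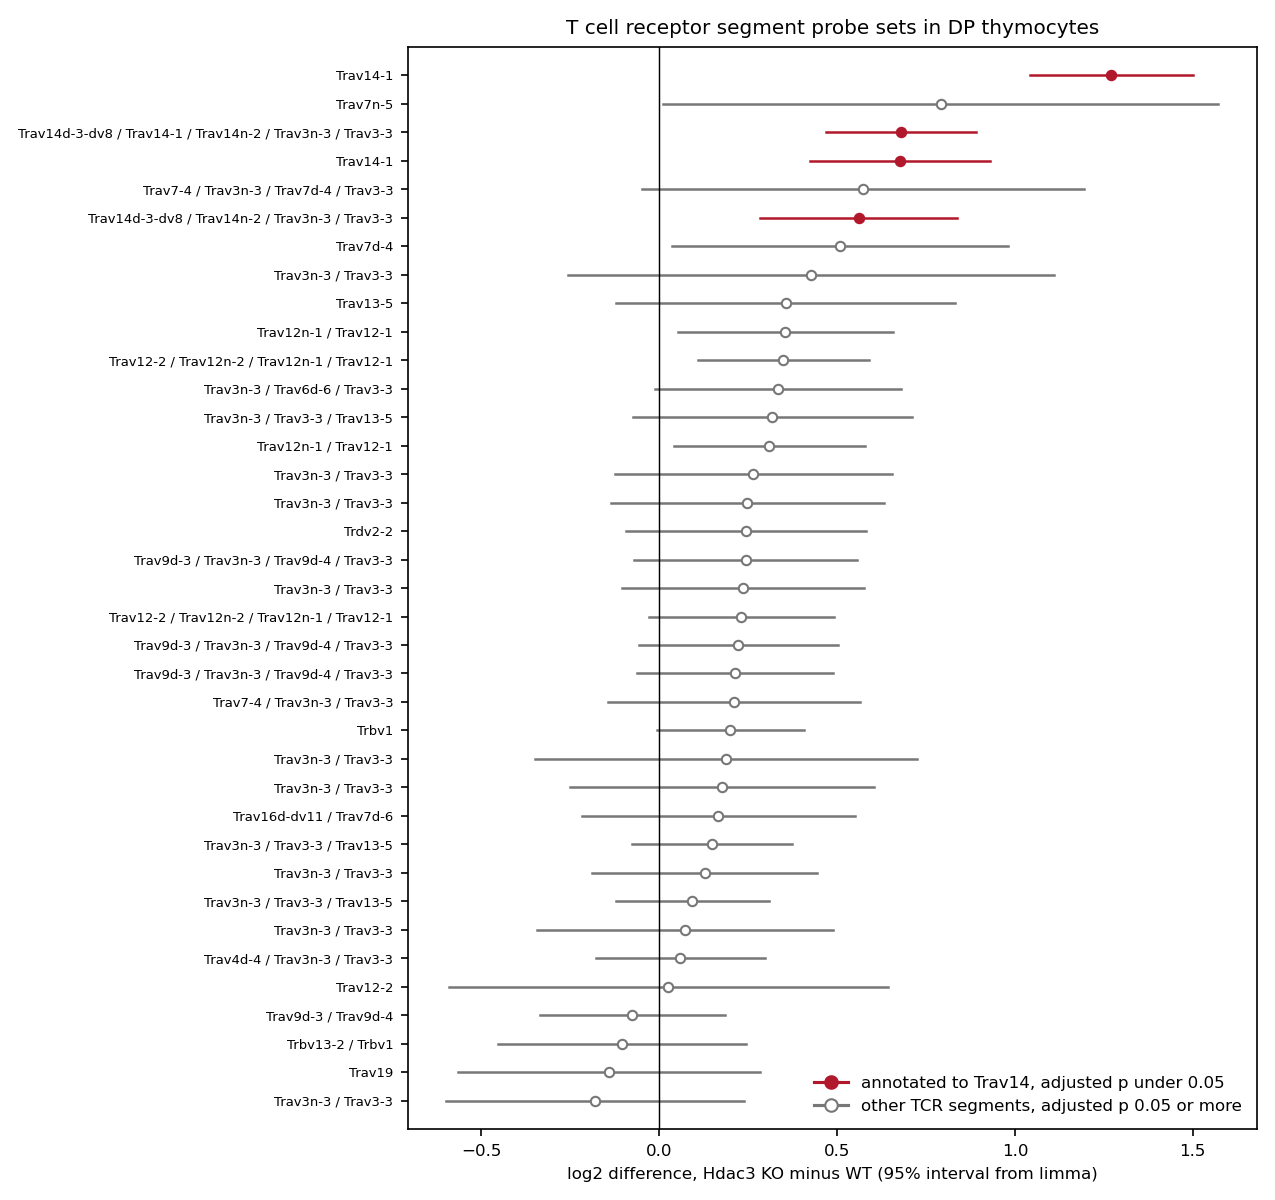
Log2 difference (KO minus WT) with its 95% interval for each of the 37 TCR segment probe sets, labelled by all annotated symbols and sorted by size; filled red points are the 4 Trav14 probe sets, which passed the test, and open grey points are the 33 that did not. Differences run from -0.18 to 1.27, and 33 of the 37 lie to the right of 0.

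The beta and delta V segments did not pass. Trbv1, the segment at the 5' end of the beta locus, had signals of 9.62, 9.54 and 9.56 on the KO arrays, against 9.49, 9.31 and 9.33 on the WT arrays. The groups did not overlap, but the difference was small, at 0.20 (95% interval -0.01 to 0.41, limma adjusted p = 0.21). The probe set shared by Trbv13-2, the segment known as Vβ8.2, and Trbv1 had 8.66, 8.42 and 8.61 on the KO arrays, against 8.81, 8.91 and 8.30 on the WT arrays. All its KO values lay within the WT range (difference -0.10, 95% interval -0.45 to 0.24), and the sign turned after quantile normalization (0.013) and without WT array 2 (0.014). Trdv2-2, a delta V segment, had 5.77, 5.91 and 5.73 on the KO arrays, against 5.42, 5.93 and 5.33 on the WT arrays (difference 0.24, 95% interval -0.09 to 0.58, limma adjusted p = 0.34). WT array 2 was the highest of the 6.

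In all, 6 of the 37 probe sets did not overlap between groups with the KO arrays higher, the 4 of Trav14, 10414769 of Trav12 and Trbv1, and 0 with the KO arrays lower. Over all tested probe sets those shares were 13.5% and 16.5%, so the count of 6 is close to the background and the count of 0 lies below it. These shares cover all signal levels, while 29 of the 37 lay in bins with median differences of -0.17 to -0.13. Neither count was tested, since the probe sets share transcripts.

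Gamma V segments carry Trgv symbols, which the rule does not take, and are given for comparison. Their 4 distinct probe sets were dim, with mean signals of 3.10 to 5.18, and differed by -0.38 to 0.09, with 0 called. Trgv1 was lower without overlap, with 4.10, 3.68 and 3.87 on the KO arrays, against 4.47, 4.19 and 4.13 on the WT arrays (difference -0.38, SE 0.13, limma adjusted p = 0.12). Immunoglobulin segments, built in the same way but used by B cells, had 31 distinct probe sets with mean signals of 2.42 to 5.74. Their median difference was 0.11, with 25 positive and 0 called, and 0.04 with 19 positive after quantile normalization. The bins at those signal levels had positive medians as well.

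The CD3 and zeta chains carry the receptor to the surface. Of the 5 genes of the CD3 and pre-TCR chains, 1 was lower and 4 did not pass, beside 4.04% of all tested probe sets called lower, with a median of -0.03. Cd247, the zeta chain that holds most of the signalling motifs, had 8.97, 8.73 and 8.97 on the KO arrays, against 9.43, 9.29 and 9.24 on the WT arrays (difference -0.43, SE 0.10, limma adjusted p = 0.045), a call that was lost in 15 of 20 alternatives. Cd3e differed by 0.22, Cd3d by 0.17, Cd3g by -0.03 and Ptcra, the partner of the beta chain before an alpha chain exists, by -0.15, none of which passed.

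Of 12 measured genes of V(D)J recombination, 3 fell and 9 did not pass, beside 4.04% of all tested probe sets called lower, with a median difference of -0.10. The genes of this list, of the CD3 and pre-TCR chains and of the factors below lie in bins with median signals from 6.97 to 10.08. In those bins the median difference of all tested probe sets was itself negative (-0.17 to -0.04), while the 4.04% covers all signal levels. Hmgb1, a DNA-bending cofactor of RAG cleavage, had 9.001, 9.04 and 9.11 on the KO arrays, against 9.95, 9.65 and 9.93 on the WT arrays (difference -0.79, SE 0.11, limma adjusted p = 0.0040). Xrcc6, the Ku70 subunit that binds broken ends, had 9.89, 9.73 and 9.80 on the KO arrays, against 10.58, 10.50 and 10.42 on the WT arrays (difference -0.69, SE 0.09, limma adjusted p = 0.0040). Both passed in all 20 alternatives.

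Nhej1, the end-joining factor XLF, had 6.21, 6.12 and 6.46 on the KO arrays, against 6.86, 6.80 and 6.83 on the WT arrays (difference -0.57, SE 0.11, limma adjusted p = 0.018), and its call was lost in 9 of 20 alternatives (limma adjusted p up to 0.101), among them the fits without WT array 1 or 2 or KO array 1 or 2. The recombinase genes Rag1 and Rag2 differed by 0.07 (95% interval -0.13 to 0.26) and 0.12 (95% interval -0.15 to 0.39). Dntt, the polymerase that adds untemplated bases at joints, differed by -0.07 (95% interval -0.28 to 0.15).

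Of 15 measured factors that bind TCR enhancers or prolong the time for Tcra joining, Lef1, which binds the alpha enhancer, fell by 0.40 (SE 0.09, limma adjusted p = 0.036) and 14 did not pass, beside the same 4.04%, with a median of -0.07. The call of Lef1 was lost in 12 of 20 alternatives (limma adjusted p up to 0.12), among them the fits without each array other than WT array 3 and the replicate block. Bcl2l1, which encodes the survival protein that prolongs the DP stage, differed by -0.10 (95% interval -0.31 to 0.11).

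The labelled cell type was checked against its markers. Calls in this and the following marker lists stand beside 1.75% of all tested probe sets called higher and 4.04% called lower. Of 9 measured DP markers, 8 did not pass and Cd1d1 was lower. The median of the DP list was 11.16 to 11.31 on the KO arrays, against 11.11 to 11.39 on the WT arrays. Lists of other cell types were read against signal level, since in the bins of all tested probe sets with median signals from 3.85 to 6.12, where the gamma-delta T cell markers lie, the median difference was itself positive (0.052 to 0.16).

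All 7 measured gamma-delta T cell markers had positive differences, of which Maf was called (0.66, limma adjusted p = 0.014), as did 10 of 10 neutrophil, 8 of 10 macrophage and dendritic cell and 2 of 2 erythroid markers, with 0 of these called. The log2 of the summed signal of the gamma-delta markers was 8.20, 8.31 and 8.21 on the KO arrays, against 7.87, 7.98 and 8.09 on the WT arrays, while their median, 5.26 to 5.75 on the KO arrays against 4.99 to 5.27 on the WT arrays, overlapped. The summed signal of the 6 double-negative markers was 9.68, 9.24 and 9.73 on the KO arrays, against 9.30, 8.94 and 9.29 on the WT arrays, and overlapped. Their median, 6.48 to 6.60 on the KO arrays against 5.44 to 5.91 on the WT arrays, separated. This median moved with the rank of Il2ra, which lay below Dtx1 on every WT array and above it on every KO array. The separation is therefore not a rise of the whole list. Of the 6 double-negative markers, Il2ra was higher by 2.28 (limma adjusted p = 0.0033), Cd44 fell by 0.66 (limma adjusted p = 0.0034) and 4 were not called. The median difference of the list was 0.057.

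The 10 neutrophil markers had a summed signal of 9.52 on KO array 2, beside 8.03 and 8.11 on the other KO arrays and 7.87 to 8.04 on the WT arrays. Without KO array 2, 3 of the 4 Trav14 probe sets passed, and the difference of 10414953 was 1.21, and 1.30 after quantile normalization without that array. The 5 measured markers of mature single-positive T cells, which carry a selected receptor, had summed signals of 8.55, 8.45 and 8.71 on the KO arrays, against 8.29, 8.49 and 8.69 on the WT arrays. Of these 5 markers, 3 had positive differences, and the median difference of the list was 0.20. Only 1 of them, Il7r, was called, as lower. The macrophage and dendritic cell list had medians of 5.07 to 5.13 on the KO arrays, against 4.64 to 4.88 on the WT arrays, and summed signals of 8.46, 8.75 and 8.48 on the KO arrays, against 8.26, 8.37 and 8.49 on the WT arrays, so that the medians separated and the sums overlapped. The 6 NK and NKT cell markers had medians of 4.214 to 4.377 on the KO arrays, against 3.999 to 4.212 on the WT arrays, with overlapping sums (6.78, 6.99 and 6.92 on the KO arrays, against 6.82, 6.89 and 7.05 on the WT arrays) and 0 called. Of 7 B cell markers 0 were called. Of 6 thymic epithelium markers, 5 had positive differences, with 0 called higher, and Epcam was lower (difference -0.37, limma adjusted p = 0.044). The part of these other cells in the Trav14 result was not tested.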

How the data were processed

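Deposited log2 probe set values, 1 column per array, were used as the authors deposited them. Their range, 1.94 to 13.98, is that of a log2 scale. The steps of background correction, normalization and probe summary were not given in the sources used here. No detection calls were used, so dim probe sets could not be set against background, and the number of arrays limits the precision.

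Gene symbols came from the annotation of the platform. All 23 TCR symbols matched RefSeq genes of GRCm38.p6 by Entrez identifier. The 23410 probe sets with a gene were tested with limma 3.58.1 in R 4.3.3 (lmFit, eBayes, 2 group means), two-sided, with Benjamini-Hochberg adjustment over all of them and a threshold of 0.05. The fit was tested on simulated data. No exact test was run, because with 3 arrays a group its smallest p is 0.1. A list gene was represented by its brightest probe set. The immunoglobulin probe sets leave out Ighmbp2, a helicase gene with the same prefix.

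Named in each locus were up to 6 called probe sets per direction, the 4 of highest signal and, with none called, the 2 of smallest p, and from the lists the called genes and 10 fixed ones. Others were named after their values were seen. The segments and lists were chosen with earlier results of these data known. Alternatives were other normalizations and centring, a filter on dim probe sets (mean at or below 5.08, the 40th percentile), all probe sets tested, an intensity trend with robust prior, array weights, a replicate block, leaving out each array, 1-symbol probe sets alone and identical rows kept. Quantile normalization with each array left out was chosen after seeing the data.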

Additional observations from a re-analysis of the deposited data

How the results depend on the processing

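All 4 Trav14 probe sets were called in 15 of 20 alternatives and 3 of them in the other 5, and 7 of the 20 called a further TCR segment probe set. The count of TCR segment probe sets called higher was 4, ranged from 3 to 5 with 1 array left out and from 4 to 6 with 1 array left out after quantile normalization, and was 2 with 1-symbol probe sets alone and 6 with identical probe sets counted separately. The count called lower was 0 throughout. The median difference of the Trav probe sets, 0.24, was 0.37 after quantile normalization, 0.36 after cyclic loess normalization, 0.51 with 1-symbol probe sets alone, and 0.39, 0.40 and 0.37 after quantile normalization without KO array 2, WT array 1 and WT array 2. With 1 array left out it ranged from 0.21 to 0.30. The cause was not tested.

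Over all tested probe sets, 409 were called higher and 946 lower. These counts were 197 and 1863 after median centring, 778 and 1507 with array weights, and 328 and 608 after quantile normalization. With 1 array left out they ranged from 114 to 651 and from 345 to 1295. After quantile normalization without KO array 1, 2 or 3 they were 216 and 438, 149 and 288, and 138 and 304, and without WT array 1, 2 or 3 they were 176 and 277, 137 and 316, and 350 and 614.

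Signs turned in TCR probe sets and genes that were not called. The probe set of Trbv13-2 and Trbv1 gave 0.013 after quantile and after cyclic loess normalization, -0.29 to 0.014 with 1 array left out, and 0.062, 0.056 and 0.12 after quantile normalization without KO array 2, WT array 1 and WT array 2. Trav12-2 gave -0.076 after median centring, -0.19 to 0.33 with 1 array left out, and -0.070, -0.19, -0.16 and -0.074 after quantile normalization without KO array 1, KO array 3, WT array 1 and WT array 3. Trav19 gave -0.26 to 0.085 with 1 array left out, and 0.13 after quantile normalization without KO array 2. Rag1 gave -0.010 after cyclic loess normalization and -0.035 after median centring, Ptcra 0.061 and 0.13 after quantile normalization without KO array 2 and WT array 3. Cd3g gave 0.0061 with array weights, 0.044 and 0.0026 after quantile normalization without KO array 2 and WT array 1, and -0.073 to 0.030 with 1 array left out.

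Whether replicate numbers pair the arrays could not be told from the signals, since deviations from a mean of 3 arrays are tied to each other. Deviations from the group means of same-numbered arrays correlated at 0.25, -0.07 and -0.03. KO array 1 correlated best with WT array 1, and KO arrays 2 and 3 with a WT array of another number. With the replicate block the 4 Trav14 calls stood, 4 TCR probe sets were higher and 0 lower, and the counts over all probe sets were 344 higher and 818 lower.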
